A study of Mus musculus with 14 samples.

Results

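The sarcomeric myosin heavy chain genes (Myh1, Myh2, Myh3, Myh4, Myh6, Myh7 and Myh8), the muscle transcription factor genes Myod1 and Myog, and the calcium-binding protein gene Pvalb were followed through all RNA-seq libraries of a Taf9b knock-out study. They are 10 of the 22471 gene symbols in the spinal column table. The 10 were picked by symbol with earlier results of these data known, the spinal column comparison included, so their ratios between the spinal column libraries are given as a description and without a test.

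TAF9B is a TBP-associated factor found in core promoter recognition complexes and in coactivators that acetylate histones. Poly-A RNA was sequenced from 11 samples of C57BL/6 background, 1 library in each group. WT embryonic stem (ES) cells were of the JM8 clone, and KO ES cells were of the Taf9b_BG10 clone, labelled TAF9B -/-, in which a LacZ-Neo cassette took the place of the protein-coding exons. Both ES lines were grown on feeder cells, each was a single clone, and both were turned into embryoid bodies (EBs) with retinoic acid and the hedgehog pathway agonist SAG, sampled on days 2, 4 and 6. Lumbar spinal column, the vertebrae with what surrounds and fills them, came from newborn WT and TAF9B -/- mice, the KO animals carrying the same deletion as the ES clone. Spinal cord came from newborn WT mice. How many animals went into a tissue library is not given in the sources used here, and the labels carry the ES clone names also for the tissues. Peak lists of TAF9B and RNA polymerase II (POL2) binding came from WT motor neuron EBs of the HBG3 line, which carries a GFP reporter under the Mnx1 promoter.

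Levels are FPKM, counts of fragments per transcript corrected for transcript length and for library size. Ratios are log2 of KO over WT FPKM with nothing added. A gene was considered measured where either library of a comparison exceeded 1 FPKM, and one that differed more than 2-fold is said to pass the 2-fold limit. With 1 library in a group there was no replicate spread and no p-value, and the number of fragments behind an FPKM is unknown. The targeted gene Taf9b was at 6.65 FPKM in WT spinal column and 3.31 in KO spinal column. It was thus not absent from the KO spinal column library, and why was not tested. In culture it went against the labels, at 0.537, 0.516, 1.96 and 1.37 FPKM in the libraries labelled WT (ES cells and EB days 2, 4 and 6) and at 3.06, 4.08, 4.27 and 4.01 in those labelled KO. The FPKM of all loci summed to 519726 in WT spinal column and 761155 in KO spinal column.

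Sarcomeric myosin heavy chains are the motor proteins of the thick filament, and each muscle fibre type is known by the chain it makes. Embryonic Myh3 and perinatal Myh8 dominate in developing skeletal muscle and give way after birth to the adult fast chains Myh2 (type IIa), Myh1 (type IIx) and Myh4 (type IIb). Myh7 is the chain of slow fibres and of the heart ventricle, and Myh6 is the other cardiac chain. Myod1 and Myog are basic helix-loop-helix factors that bind E-boxes and drive myoblasts into differentiation. Pvalb, parvalbumin, buffers calcium in fast fibres and in certain neurons, among them proprioceptive sensory neurons.

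The genes were expressed in spinal column and were close to 0 in culture. Of the 9 with a value in WT spinal column, which leaves out Myh8, Myh3 was highest at 420 FPKM, followed by Myh7 at 114, Myog at 92.8, Myh2 at 75.2, Myh4 at 67.9, Myh1 at 61.9, Pvalb at 42.0, Myod1 at 25.1 and Myh6 at 4.0. Without replicates, no neighbours in this order can be said to differ. Across the 8 ES and EB libraries, 0 of the 10 genes passed 1 FPKM. The highest culture value was 0.630 FPKM, of Myh6 in EB day 6 labelled KO, followed by Myh7 at 0.403 and Myh3 at 0.365. Culture values of the adult fast chains and Myh8 did not exceed 0.0216 FPKM, and those of Myod1, Myog and Pvalb reached at most 0.144, 0.0915 and 0.0823 FPKM. Since 0 of the 10 genes was measured there by the 1 FPKM rule, no ratio between culture libraries is read as a result. Directions and counts of culture differences stand only in the closing sections, at values under 1 FPKM.

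**Figure D1:**
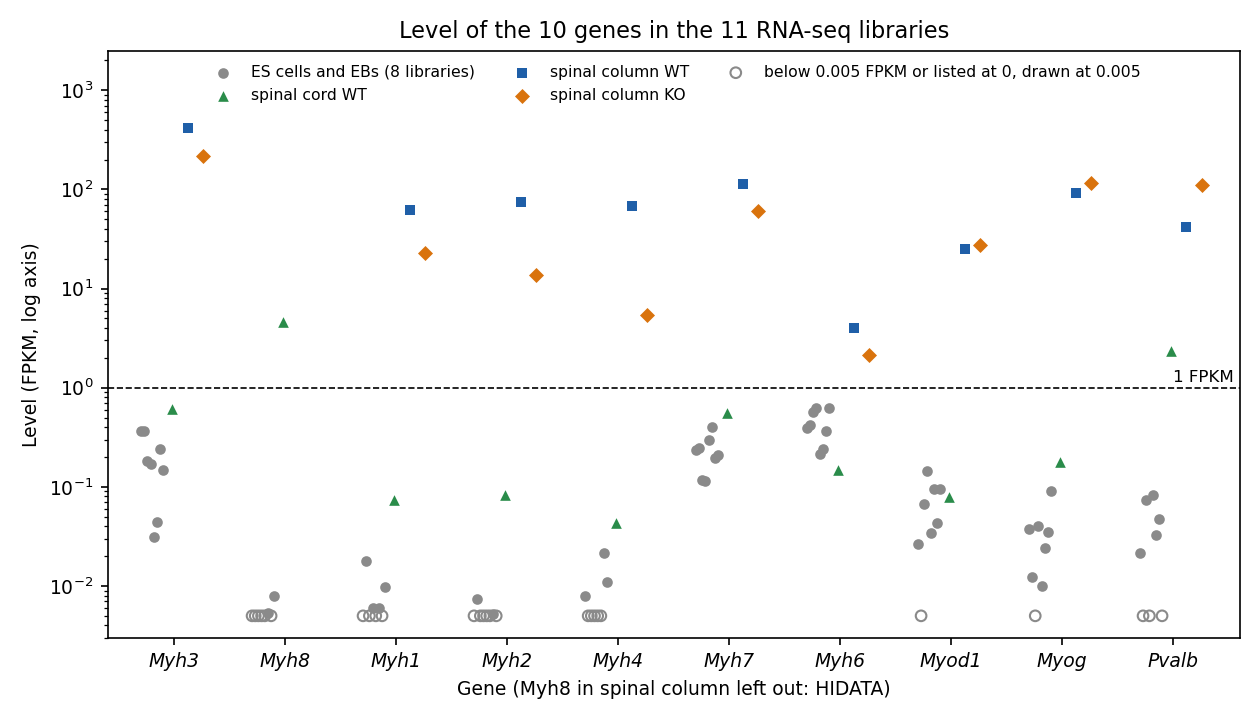
Level of each of the 10 genes in each of the 11 RNA-seq libraries, in FPKM on a log axis, with 1 point a library; open points lie under 0.005 FPKM or are listed at 0, and Myh8 in spinal column is left out. The spinal column points stand above 1 FPKM for all 9 genes shown there, the 8 culture points stay below it, and spinal cord passes it for Myh8 and Pvalb.

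WT spinal cord held little of these transcripts. Other muscle transcripts were present in that library, with 12 of 17 thin filament genes above 1 FPKM, among them Tnnc2 at 32.4 FPKM, Tnnt3 at 23.6 and Tnni2 at 22.0. Myh3 was at 0.612 FPKM, Myh7 at 0.556, Myog at 0.178, Myh6 at 0.147, Myh2 at 0.0821, Myod1 at 0.0783, Myh1 at 0.0736 and Myh4 at 0.0432. Only Myh8 at 4.61 FPKM and Pvalb at 2.33 FPKM passed 1 FPKM in that library. All 9 genes with a spinal column value were more than 2-fold higher in WT spinal column than in WT spinal cord, where 17.2% of all measured genes were. The ratio of spinal column to spinal cord ran from 18.0-fold for Pvalb to 1572-fold for Myh4, with the 2 libraries taken from tables that the authors normalized separately. Spinal cord levels this close to 0 set the size of these folds. With 1 FPKM added to both values the log2 ratio of Myh4 went from 10.62 to 6.04, Myh3 was highest at 8.03, Myh6 was lowest at 2.12, and all 9 stayed past 2-fold. Across 96 genes of 7 muscle lists the middle of this ratio was 120-fold. Pvalb and Myh6, at 27.2-fold, lay below the lower quartile of those genes, 30.2-fold. Against WT ES cells, Myh8 was 1239-fold and Pvalb 101-fold higher in spinal cord, 2 of 2 measured members beside 30.3% of all genes more than 2-fold higher. Both ES levels, 0.00372 and 0.0232 FPKM, were close to 0.

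In newborn spinal column the fast heavy chains were lower in the KO library, the other heavy chains were lower by less than 2-fold, the regulators were within 2-fold, and Pvalb was higher. Of the 9 genes with a value, 3 were more than 2-fold lower in KO and 1 was more than 2-fold higher, while 8.45% and 8.98% of 13992 measured genes were lower and higher by that much. With a trend on transcript length taken off, 2 were lower (Myh2 and Myh4), 0 were higher, and the median moved to -0.42. The background shares are printed for scale only, because the genes were chosen with this comparison known. Before that step the median log2 ratio was -0.91 for the 9 genes and 0.06 for all measured genes. In a bulk tissue, fewer cells of a type and less RNA per cell cannot be told apart.

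Myh4, the IIb chain of the fastest fibres, was at 67.9 FPKM in WT and 5.41 in KO spinal column. That is 12.5-fold lower in KO, a log2 ratio of -3.65 and the lowest of the 9 genes. Myh2, the IIa chain, was at 75.2 FPKM in WT and 13.7 in KO, 5.49-fold lower, with a log2 ratio of -2.46. Myh1, the IIx chain, was at 61.9 FPKM in WT and 22.9 in KO, 2.70-fold lower, with a log2 ratio of -1.43 that became -0.95 with the length trend taken off. The 3 adult fast chains thus stood within a narrow range of levels in the WT library and spread apart in the KO library in the order Myh1, Myh2, Myh4.

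Myh3, the embryonic chain, was at 420 FPKM in WT and 218 in KO, 1.93-fold lower. Myh7, the slow chain, was at 114 FPKM in WT and 60.9 in KO, 1.86-fold lower. Myh6 was at 4.0 FPKM in WT and 2.13 in KO, 1.88-fold lower. These 3 chains had nearly the same log2 ratio, -0.95, -0.90 and -0.91. Myh6 and Myh7 are also heart genes, so 11 other heart genes were read beside them, of which 4 were measured. Hand2 was at 4.65 FPKM in WT and 2.27 in KO, Hand1 at 1.54 and 0.795, Gata6 at 1.13 and 1.2, and the atrial light chain gene Myl7 at 0.356 and 1.66. Nkx2-5 was listed at 0 in both libraries, and Nppa was at 0.668 and 0.442. The summed level of the 11 was 10.1 FPKM in WT and 7.04 in KO, and the part of heart tissue in the values of Myh6 and Myh7 was not tested.

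Myh8 was left out of the spinal column comparison. Its locus carried the status HIDATA, which Cuffdiff gives to a locus with more fragments than it will process. It was listed at 0 FPKM in WT and 753 FPKM in KO, and neither entry was read as a level. The same status stood on 13 loci of that table, among them the muscle genes Acta1, Ckm, Myl1 and Mylpf. The perinatal chain, a main chain of newborn muscle, is therefore missing from sums over heavy chains.

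The 6 heavy chains with a value summed to 743 FPKM in WT and 323 in KO spinal column, 2.30-fold lower. Myh3 made up 56.6% of that sum in WT and 67.5% in KO. Myh7 made up 15.3% in WT and 18.9% in KO, and Myh6 0.538% and 0.659%. Myh1, Myh2 and Myh4 together made up 27.6% of the sum in WT and 13.0% in KO. Of that, Myh4 held 9.13% in WT and 1.68% in KO, Myh2 10.1% and 4.24%, and Myh1 8.33% and 7.08%. Seen against Myh3, the ratio was 6.50 times lower for Myh4, 2.85 times lower for Myh2 and 1.40 times lower for Myh1. Seen against Myh7 these factors were 6.72, 2.95 and 1.45. Among these 6 chains, the embryonic and slow chains thus took a larger share in the KO library, and the fast chains a smaller one. Shares of all heavy chain transcripts are unknown, since Myh8 had no value in either library.

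**Figure D2:**
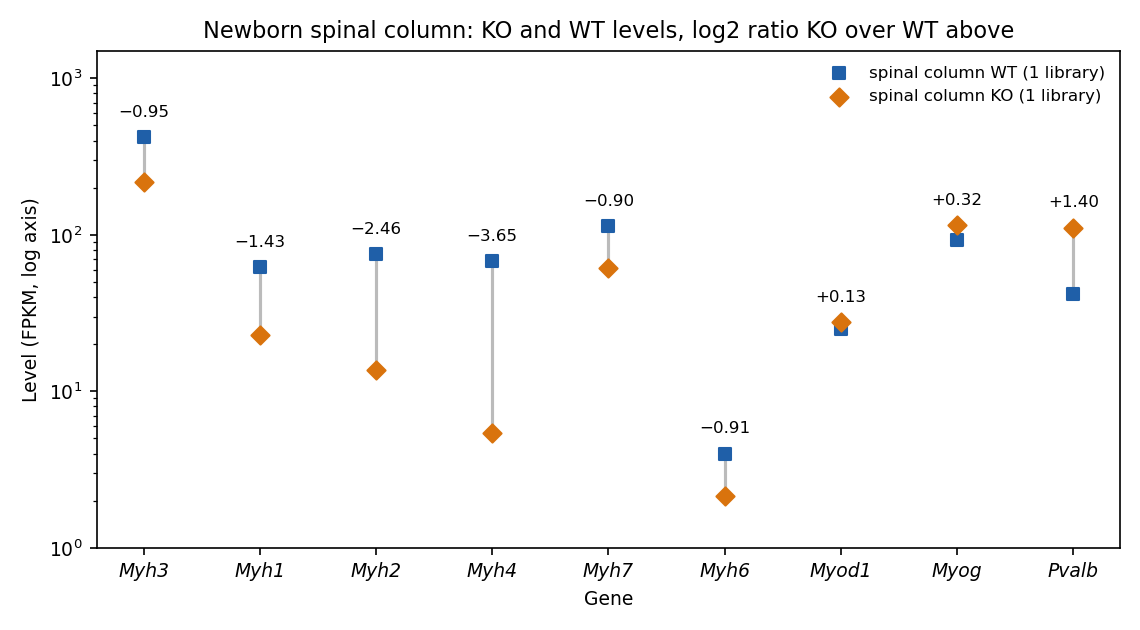
FPKM of the 9 genes with a value in WT and KO spinal column, 1 library each, on a log axis, with the log2 ratio of KO over WT above each pair. The gap widens from Myh1 through Myh2 to Myh4, is alike for Myh3, Myh6 and Myh7, and turns upward for Pvalb.

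Myod1, which marks the myoblast lineage, was at 25.1 FPKM in WT and 27.6 in KO spinal column, a log2 ratio of 0.13. Myog, which is switched on as myoblasts stop dividing and fuse, was at 92.8 FPKM in WT and 116 in KO, a log2 ratio of 0.32. Neither differed by 2-fold, and with a trend on transcript length taken off both ratios were slightly under 0, at -0.19 and -0.15. Pvalb was at 42.0 FPKM in WT and 111 in KO, 2.64-fold higher, with a log2 ratio of 1.40. It was the only one of the 9 to pass 2-fold upward, and with the length trend taken off its log2 ratio was 0.69 and none did.

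Pvalb also marks proprioceptive neurons, so other genes of such neurons and other calcium buffers of its kind were read beside it. Of 9 such genes 8 were measured, and all 8 had a log2 ratio below 0, with a median of -0.68. Etv1, a transcription factor of proprioceptive neurons, was at 8.83 FPKM in WT and 3.80 in KO, and S100b, an EF-hand protein of glia, at 15.3 and 14.5. The summed level of the 9 was 46.7 FPKM in WT and 32.1 in KO. Their part in the Pvalb value was not tested.

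The heavy chain genes lie in tandem clusters, so their positions and sequences were set beside these values. In the mm9 coordinates of the tables, Myh3 (chr11:66891802-66915793), Myh2 (chr11:66984529-67011019), Myh1 (chr11:67013616-67038077), Myh4 (chr11:67051531-67073948) and Myh8 (chr11:67090626-67122135) follow one another on chromosome 11. Myh6 (chr14:55560758-55585444) and Myh7 (chr14:55587624-55613386) are neighbours on chromosome 14. Myod1 is at chr7:53631844-53634462, Myog at chr1:136186581-136189125 and Pvalb at chr15:78021548-78034586. The fast chains Myh2, Myh1 and Myh4 are thus adjacent genes, with embryonic Myh3 on one side and perinatal Myh8 on the other. Myh13, the extraocular fast chain, which is not one of the 10, was at 16.4 FPKM in WT and 1.32 in KO spinal column. Its log2 ratio was -3.63, next to the -3.65 of Myh4. Sequence that Myh13 shares with the other chains was not counted, and the part of their reads in its values was not tested.

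The 250 bases before the start of 9 of the 10 genes were found in RefSeq (GRCm38.p6, another build than that of the levels), with Myod1 not among them. The start regions of the 3 fast chains that were lower in KO, and of Myh8 beside them, are shown because they hold a common stretch, TTCTAATTATATCC, written in capitals; each is on the plus strand, 5′ to 3′, and ends at the base before the start. They cover chr11:67199852-67200101 for Myh1, chr11:67170777-67171026 for Myh2, chr11:67237562-67237811 for Myh4 and chr11:67276874-67277123 for Myh8.
Myh1: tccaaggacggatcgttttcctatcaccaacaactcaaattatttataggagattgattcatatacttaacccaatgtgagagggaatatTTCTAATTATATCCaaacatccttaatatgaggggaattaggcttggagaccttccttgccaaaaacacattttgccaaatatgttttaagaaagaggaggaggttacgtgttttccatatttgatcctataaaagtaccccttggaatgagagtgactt
Myh2: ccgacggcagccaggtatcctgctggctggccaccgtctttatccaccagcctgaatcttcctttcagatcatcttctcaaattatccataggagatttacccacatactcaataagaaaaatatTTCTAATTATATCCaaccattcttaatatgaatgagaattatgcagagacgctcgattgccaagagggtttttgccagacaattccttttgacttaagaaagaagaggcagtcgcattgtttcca
Myh4: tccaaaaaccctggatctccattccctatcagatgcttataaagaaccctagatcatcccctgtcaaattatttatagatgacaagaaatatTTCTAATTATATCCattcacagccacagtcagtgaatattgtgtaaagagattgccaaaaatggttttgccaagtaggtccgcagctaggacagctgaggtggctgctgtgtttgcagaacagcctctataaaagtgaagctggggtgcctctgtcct
Myh8: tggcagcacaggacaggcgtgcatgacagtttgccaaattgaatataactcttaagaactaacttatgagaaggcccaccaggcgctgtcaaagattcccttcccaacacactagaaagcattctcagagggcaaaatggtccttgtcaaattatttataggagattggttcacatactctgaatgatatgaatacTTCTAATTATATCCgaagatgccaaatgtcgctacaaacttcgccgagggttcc

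The 14 capital bases begin 160, 125, 158 and 54 bases before the start of Myh1, Myh2, Myh4 and Myh8, and of 32851 such regions in RefSeq only these 4 hold them on either strand, 0.0122% of all. Myh1, Myh2 and Myh4 share a longer run of 20 bases, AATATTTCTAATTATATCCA, found in 3 of the 32851 regions. The stretch was found by comparing these promoters with each other, and it marks like sequence between neighbouring family members, not a site known to be bound. E-boxes, written CANNTG, were searched on both strands and were present in 66.2% of all regions, and in 7 of the 9 genes here, not in Myh1 or Myh2. Myog held 2 of them, at 138 and 12 bases before the start, and Myh4 held 2, at 221 and 67. The one of Myh4 at 67 bases was of the form CAGCTG, which 13.0% of all regions hold. A MEF2 site was found in Myh1, Myh4, Myh8 and 1 of 2 Pvalb start regions, and in 2.92% of all regions. A CArG box was found in Myh4, and in 1.47% of all regions.

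Like sequence also touches the values. The longest transcripts of the 7 heavy chains (GENCODE M1, 6016 to 6230 bases) were cut into all windows of 50 bases. Of these windows 26.1% of Myh1, 26.7% of Myh2, 18.6% of Myh4 and 19.9% of Myh8 were found in another heavy chain, as were 22.8% of Myh6 and 22.2% of Myh7, which share them with each other. For Myh3 the share was 3.66%. The shares move with the window, for Myh1 from 34.6% at 36 bases to 16.2% at 75, for Myh4 from 26.03% to 9.37% and for Myh3 from 7.49% to 0.588%. Reads from such windows can be placed on more than 1 gene, so levels of Myh1, Myh2, Myh4, Myh6, Myh7 and Myh8 are less certain than that of Myh3. Read length is not given in the sources used here.

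In the spinal column comparison the ratio of a gene moved with the length of its transcript. Measured genes under 1000 bases had a median log2 ratio of 0.90, and 41.7% of the 870 were more than 2-fold higher in KO. Those of 5000 to 7000 bases, the range of all 7 heavy chains, had a median of -0.45, and 15.3% of the 1525 were more than 2-fold lower. From 7000 bases up the median was -0.85. Spearman's rho of ratio and length was -0.60 over 13316 genes and -0.78 over 102 genes of the muscle lists, given across genes of the same 2 libraries and without a p-value. Pvalb (977 bases), Myog (1479) and Myod1 (1854) are short, so the members that were lower and those that were not are split by length as well as by role.

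The chains were also ranked among genes of like length. The ranks are a description only, because the chains were chosen with this comparison known. Among the 1525 genes of 5000 to 7000 bases, 0 had a lower ratio than Myh4. For Myh2 the number with a lower ratio was 3, with Myh4 and Myh13 among them. For Myh1 it was 61, with Myh2, Myh4 and Myh13 among them. For Myh3, Myh6 and Myh7 these numbers were 268, 294 and 307. Among the 870 genes under 1000 bases, 140 had a higher ratio than Pvalb. With a smooth trend on length taken off, the log2 ratio was -3.17 for Myh4, -1.97 for Myh2 and -0.95 for Myh1. It was -0.47 for Myh3, -0.42 for Myh6, -0.39 for Myh7, -0.19 for Myod1, -0.15 for Myog and 0.69 for Pvalb. Myh4 and Myh2 stayed past 2-fold, and Myh1 and Pvalb did not. The heavy chains differ little in length, so the gap between Myh4 and Myh3 is nearly the same with and without the trend.

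**Figure D3:**
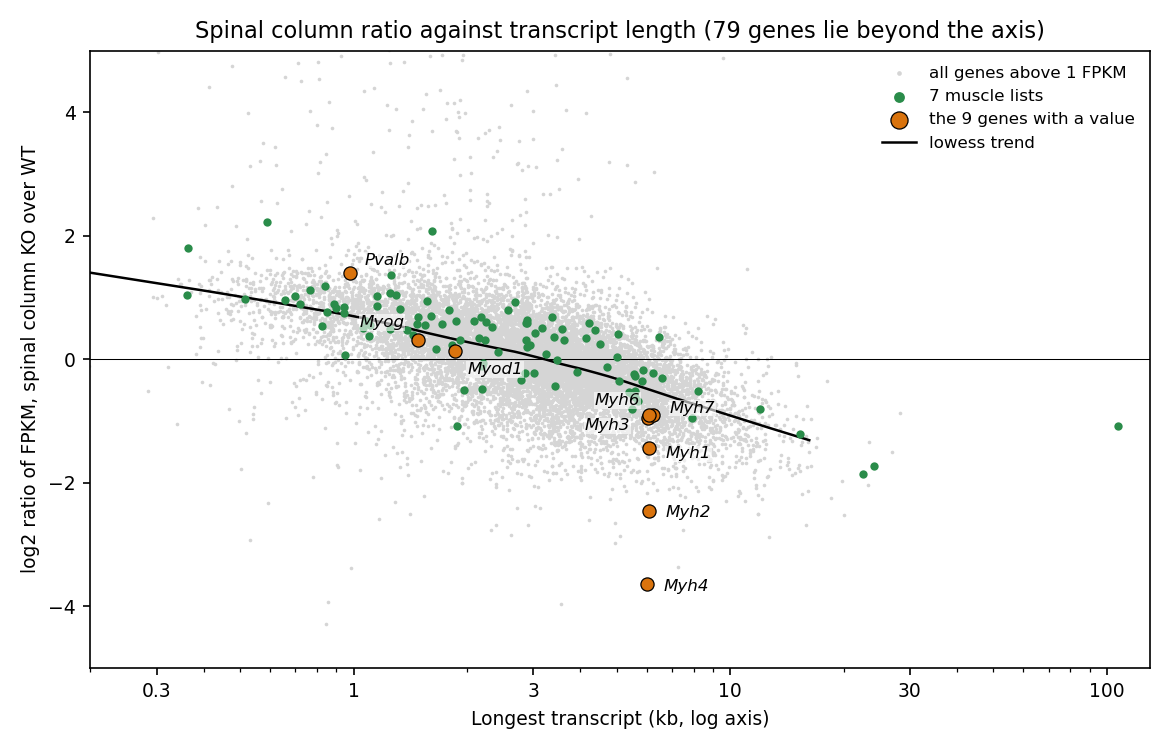
Log2 ratio of FPKM, KO over WT spinal column, against the longest transcript of each gene on a log axis, for all measured genes (grey), 7 muscle lists (green) and the 9 genes with a value (orange), with a lowess trend. Myh4 and Myh2 lie far under the trend at about 6 kb, Myh3, Myh6 and Myh7 close to it, and Myog and Myod1 just under it, and Pvalb above it.

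Of the other genes of skeletal muscle 70 of 102 had a ratio above 0, as had 7453 of all 13992 measured genes. In the length range of the heavy chains, 5000 to 7000 bases, 13 of 16 were below 0 with a median of -0.32, and from 7000 bases up 7 of 7 were below 0, beside 1253 of 1525 and 865 of 918 of all genes of these lengths. In 7 lists of muscle genes, 102 of 111 were measured, 5 were more than 2-fold lower in KO, 11 were more than 2-fold higher, and the median log2 ratio was 0.40. With all ratios centred on the median gene the split was 6 lower and 7 higher, and with the length trend taken off it was 1 lower and 3 higher, with a median of 0.14. Of the striated myosin light chains, the partners of the heavy chains, all 4 measured had a ratio above 0, with Myl2 at 434 FPKM in WT and 804 in KO and a median log2 ratio of 0.87. These are transcripts under 1000 bases, where 790 of all 870 genes had a ratio above 0 and the median was 0.90. With the length trend taken off, Myl2, Myl3 and Myl4 had log2 ratios of 0.13, 0.02 and 0.12, and Myl7, the only one past 2-fold, had 1.28. In the thin filament, 1 of 16 was more than 2-fold lower and 4 were more than 2-fold higher. Neb, the giant nebulin, was at 25.7 FPKM in WT and 7.06 in KO, a log2 ratio of -1.87 that became -0.29 with the length trend taken off. Tnnc2, fast troponin C, was at 4167 and 8515, and Tmod4, a filament capping protein, at 35.9 and 92.4.

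Of the thick filament, M-band and Z-disc list, 3 of 24 were more than 2-fold lower and 1 was more than 2-fold higher, with a median log2 ratio of 0.00. Myoz1, a Z-disc protein of fast fibres, was at 440 FPKM in WT and 907 in KO, and the intermediate filament gene Des at 1055 and 1419. Of the genes for excitation and calcium release, 1 of 18 was more than 2-fold lower, the release channel gene Ryr1 at 19.8 FPKM in WT and 8.52 in KO, whose log2 ratio went from -1.21 to 0.05 with the length trend taken off. Sln, an inhibitor of the calcium pump, was at 1372 and 2690. Of muscle energy genes, 0 of 12 were lower by 2-fold and 3 were higher by 2-fold, with Cox7a1, a respiratory chain subunit of muscle, at 116 and 408. Without the length trend the log2 ratios of Cox7a1, Tmod4, Myoz1 and Myf6 were 0.66, 0.80, 0.49 and 0.51, all within 2-fold. Aldoa, a glycolytic enzyme, was at 3154 FPKM in WT and 4654 in KO. Pfkm, phosphofructokinase of muscle, had the lowest log2 ratio of that list, 0.19.

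Troponin and related genes also come in fast and slow forms, and some are given here as a description, picked after their values were seen. Fast Tnnc2, Tnni2 and Tnnt3 had log2 ratios of 1.03, 1.12 and 0.62, and slow Tnnc1, Tnni1 and Tnnt1 had 0.90, 1.03 and 0.50. All of these are short transcripts, of 700 to 1150 bases. With the length trend taken off, the fast forms had 0.17, 0.29 and -0.04 and the slow forms 0.04, 0.41 and -0.17. Atp2a1, the calcium pump of fast fibres, was at 1122 FPKM in WT and 1115 in KO, and slow Atp2a2 at 111 and 69.8. Their log2 ratios were 0.05 and -0.25 once the trend was taken off. Atp2a2 was also at 79.4 FPKM in WT spinal cord and 79.0 in WT ES cells, so it is not particular to slow fibres. Fast Mybpc2 had a log2 ratio of 0.50 and slow Mybpc1 one of -0.21, or 0.58 and -0.07 without the trend. Fast Actn3 had a log2 ratio of 0.59 and Actn2, made in all fibres, one of -0.23, or 0.52 and -0.27 without the trend.

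The regulators of the muscle lineage beside Myod1 and Myog were also mostly within 2-fold. Of 18 such genes 17 were measured, 0 were more than 2-fold lower, and 1 was more than 2-fold higher, with a median log2 ratio of 0.08. That gene was Myf6, also called MRF4 and the fourth factor of the Myod1 family, at 27.3 FPKM in WT and 57.6 in KO. Vgll2, a cofactor of skeletal muscle, was highest at 71.0 and 79.5, and Nfix, which drives the switch from embryonic to fetal muscle genes, was lowest in ratio at 26.2 and 15.0. At the neuromuscular junction, 0 of 11 were lower by 2-fold and 1 was higher by 2-fold. That was the receptor subunit gene Chrne, at 0.318 FPKM in WT and 1.34 in KO. Ache, acetylcholinesterase, was at 51.1 and 36.5, Rapsn, which clusters the receptors, at 15.1 and 24.5, and the agrin receptor Lrp4 at 8.26 and 4.27. In WT spinal cord Nfix was at 29.7 FPKM, Ache at 67.9 and Lrp4 at 9.12, so these genes are not particular to muscle. Among the other myosin heavy chains 3 of 5 measured were more than 2-fold lower, namely Myh13, nonmuscle Myh10 at 16.3 and 6.02 with a log2 ratio of -1.44, next to the -1.43 of Myh1, and smooth muscle Myh11 at 2.25 and 0.871. With the length trend taken off Myh13 kept a log2 ratio of -3.14, and Myh10 and Myh11, at -0.74 and -0.80, were within 2-fold. Nonmuscle Myh9 was at 16.9 and 8.75 and Myh14 at 1.89 and 1.21. Of smooth muscle genes 1 of 7 was lower by 2-fold and 1 was higher by 2-fold, with Acta2 at 119 and 201, Cnn1 at 1.25 and 2.83 and Synpo2 at 21.4 and 16.4.

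Markers of other tissues moved between the spinal column libraries as well. All 12 neuronal genes had a ratio below 0 and 9 were more than 2-fold lower in KO, with a summed level of 1242 FPKM in WT, 657 in KO and 2537 in spinal cord. Nefh, a neurofilament gene, was at 27.0 and 7.22, Stmn2 at 236 and 170, and Tubb3 at 331 and 208. Of 4 measured motor neuron genes 1, Isl2, was more than 2-fold lower, at 19.7 and 7.46. An epidermis list, added after the data were seen, had 11 of 11 measured genes more than 2-fold higher in KO, none of them listed at 0 in either library, with a sum of 22.2 FPKM in WT and 982 in KO. Krt1, a keratin of the upper epidermis, was at 1.04 and 238, Lor at 5.46 and 97.0, and Trp63 at 2.51 and 6.20. Cartilage and bone genes had a median log2 ratio of -0.03, with 1 of 10 more than 2-fold lower, Runx2 at 2.43 and 1.21, with Col2a1 at 156 and 83.6 and Ibsp at 109 and 168. Tendon and connective tissue genes, 6 of 6 within 2-fold, had a median of 0.23, with Col1a1 at 1423 and 753 and Tnmd at 78.4 and 154. Of 3 measured genes of pluripotent cells, Klf4 was at 14.8 and 18.3, Esrrb at 2.12 and 1.73, and Nanog at 0.435 and 1.68, the only one past 2-fold. The part of these tissues in the values of the 10 genes was not tested.

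**Figure D4:**
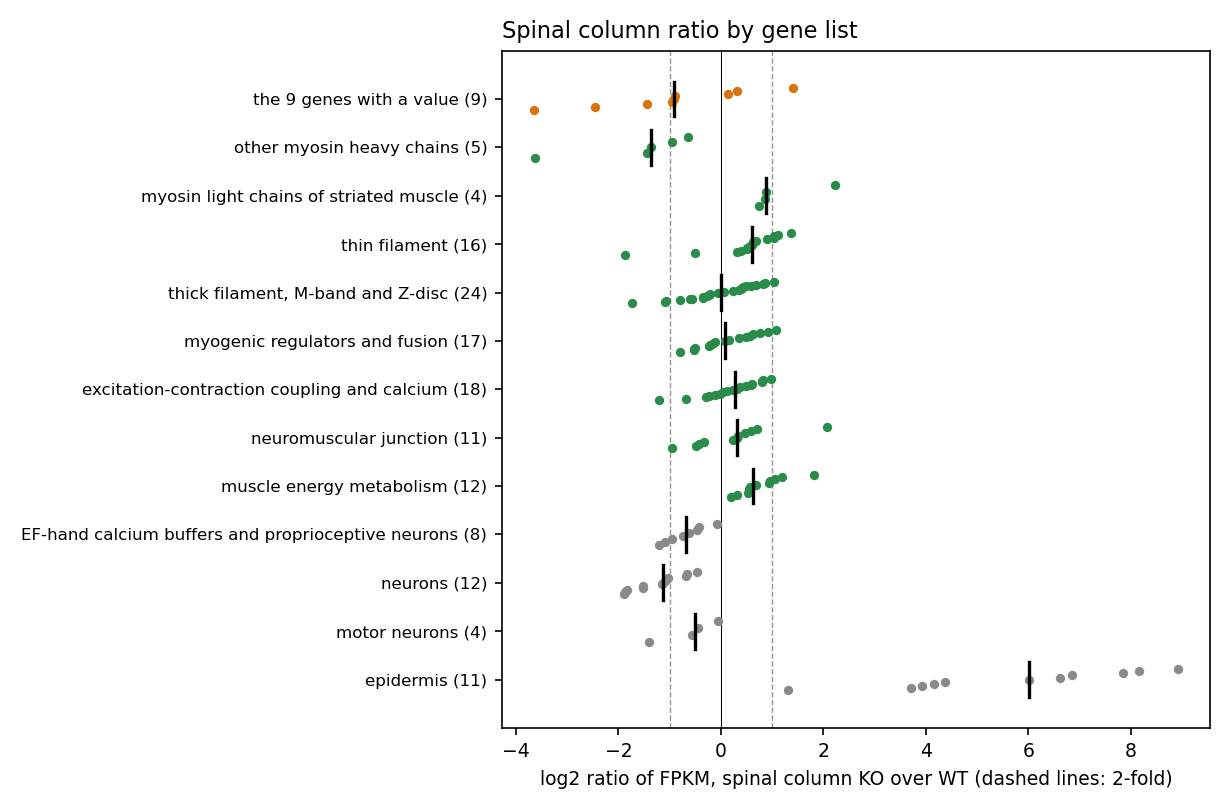
Log2 ratio of FPKM, KO over WT spinal column, for each measured gene of each list, with the number of genes in parentheses, a black bar at the median and dashed lines at 2-fold. The medians of the 7 muscle lists lie between 0.00 and 0.87, that of the 9 genes at -0.91, that of neurons at -1.13 and that of epidermis at 6.02.

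Over the 11 libraries, Pearson's r of log2(FPKM + 1) with the mean profile of the 9 was highest for Ucp3, a mitochondrial carrier of skeletal muscle, at 0.9998. Next among 15640 genes were the M-band gene Myom3, Cmya5, Myo18b, Nrap, Gm4814, Col6a6, Lmod2, Xirp2 and Plin4. In spinal column Ucp3 was at 16.2 FPKM in WT and 10.4 in KO, Nrap at 72.3 and 49.1, and Lmod2 at 98.2 and 69.5. Of the 100 most alike, 25 were on the muscle lists. The mean profile is near 0 in 9 of the 11 libraries, so r mostly says how far a gene is high in spinal column and near 0 elsewhere. Against the mean that includes them, Myh3 and Myh7 had an r of 0.999, Myh4 and Myh6 of 0.950, and Pvalb of 0.962.

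Neither TAF9B nor POL2 had a peak within any of the 10 genes in motor neuron EBs. Within 50 kb of the genes lay 4 of 10415 TAF9B peaks and 8 of 8620 POL2 peaks. For each antibody 4 of the 10 genes had such a peak. The share of all genes with a peak inside or this near was not counted, so whether these numbers are low, usual or high is unknown. The nearest TAF9B peak was 13.98 kb from Myod1 (mm9 chr7:53648443-53648767), and others lay 25.5 kb from Myh3, 45.5 kb from Myog and 48.1 kb from Myh6. For the adult fast chains the nearest TAF9B peaks were 147 kb from Myh1, 118 kb from Myh2 and 185 kb from Myh4. The nearest POL2 peak was 14.7 kb from Myh6, and the nearest ones to Myh1, Myh2 and Myh4 were 147, 118 and 185 kb away. No binding data from spinal column were analysed here.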

How the data were processed

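Poly-A RNA was sequenced from 11 samples, 1 library a group. The authors mapped the reads to RefSeq genes with TopHat (mm9, per the labels) and deposited 6 Cuffdiff tables of FPKM values, each with 23152 loci and the libraries it compares, normalized together. The same tables hold the authors' fold changes and p-values, which were not used. Deposited peak lists of TAF9B and POL2 carry a score for each peak, which the authors made with Bowtie and the peak caller MACS. The IgG library was not used here.

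RefSeq identifiers were turned into symbols with an NCBI gene table (GRCm38.p6, for names only), which left 320 to 386 loci a table unnamed. A symbol with several loci took the locus with the highest mean FPKM. HIDATA loci were left out. Ratios were log2 of FPKM without pseudocount, called past 2-fold among genes above 1 FPKM in at least 1 of 2 libraries. With 1 library a group no test was run. Tables normalized separately were compared only where stated. Transcript lengths were those of the longest GENCODE M1 coding transcripts, found for 95.6% of measured genes, and the length trend was a lowess fit (fraction 0.3, statsmodels 0.14.6) over 12308 genes above 1 FPKM in both spinal column libraries. Likeness was Pearson's r over 11 libraries, and the named genes were the 10 with the highest r, all 10 members, Taf9b and, in each list, the gene with the highest WT level and, among genes above 1 FPKM in both spinal column libraries, those with the highest and lowest ratio. 1 gene that this rule names is not reported here. Other genes named beside small counts were chosen after their values were seen. Peaks within 50 kb were counted. Scripts (Python 3.11.15) were tested on simulated data. The members and lists were chosen with earlier results of these data known, and the epidermis list and the length trend were added after the data were seen. Alternatives were a pseudocount of 1 FPKM, other limits on low values, centring, summed loci, HIDATA loci kept, the second table listing ES WT, and other peak distances and scores.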

Additional observations from a re-analysis of the deposited data

Results flagged for a closer look

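For 3 of the 9 genes with a spinal column value, the KO over WT difference there was opposite to that in all 4 culture comparisons. These were ES cells and EB days 2, 4 and 6. The same held for Taf9b, for 11.2% of 13992 measured genes, and for 7.39% of the 1746 under 1 FPKM in all culture libraries. The difference between tissue and culture was not tested, with 1 library a group. Myh1 had a log2 ratio of -1.43 in spinal column, and in culture the library labelled KO was higher in 4 of 4 comparisons, by 0.00588 to 0.0145 FPKM. Myh6 had a log2 ratio of -0.91 in spinal column, and in culture it was higher in the library labelled KO by 0.0239 to 0.261 FPKM. Pvalb had a log2 ratio of 1.40 in spinal column, and in culture its differences, KO minus WT, ran from -0.0740 to -0.0213 FPKM. All culture levels of these 3 genes were below 1 FPKM, and several of Pvalb were listed at 0. Taf9b had a log2 ratio of -1.01 in spinal column, and in culture it was higher in the library labelled KO by 2.31 to 3.56 FPKM. The directions in culture rest on labels that the Taf9b levels go against. Other genes differed strongly between the same libraries. At EB day 6, with the WT label first and the KO label second, the neuronal gene Tubb3 was at 561 and 41.3 FPKM. The pluripotency gene Pou5f1 was at 198 and 543. All genes of the motor neuron list were lower under the KO label, Mnx1 at 14.3 and 1.62 and Lhx3 at 14.9 and 0.335. In the authors' qRT-PCR, differentiated KO cells had less Mnx1 and Lhx3 and kept more Pou5f1, and Taf9b rose only in WT cells. Whether labels were exchanged was not tested.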

How the results depend on the processing

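The 4 members past 2-fold in spinal column became 5 with centring, where Myh3 had a log2 ratio of -1.002, and 5 with HIDATA loci kept, where Myh8 counted as higher. They became 2 with the length trend subtracted, an alternative chosen after seeing the data, which also took the muscle lists from 16 genes past 2-fold to 4. Adding 1 FPKM left the count at 4. In culture, where 0 members passed the 1 FPKM limit, dropping the limit gave counts of 4 (ES cells), 4 (EB day 2), 6 (EB day 4) and 4 (EB day 6) for KO over WT and 4 for EB day 6 over ES cells in WT, all at values under 1 FPKM. A limit of 0.1 FPKM gave 1 at EB day 2. For spinal cord over ES cells the 2 members became 5 with a limit of 0.1 FPKM and 9 without one. The 12 peaks within 50 kb became 0 within 5 kb and 26 within 100 kb. The length trend also turned the log2 ratios of Myod1, from 0.13 to -0.19, and of Myog, from 0.32 to -0.15, neither of them past 2-fold. The other alternatives turned no member's ratio in spinal column. No paired analysis was possible because each group held 1 library. Depth is unknown, and nothing here separates genotype from the spread between animals or dissections.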
